A study of Arabidopsis thaliana with 12 samples.

Results

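The val1 val2 double mutant of Arabidopsis thaliana was compared with the wild type (WT) in 14-day-old whole seedlings, using the 3 RNA-seq libraries titled val1 val2 and the 3 titled WT, of 12 libraries in all. The val1 val2 seedlings carry mutations in both VAL1 (AT2G30470) and VAL2 (AT4G32010), and the WT seedlings carry neither. The labels give no allele names, lesion positions or ecotype, and the design text calls the samples of a group biological replicates without saying whether plates or sowings were separate. Seedlings of all groups were grown on Murashige and Skoog plates with sucrose under long days after a cold, dark treatment of the seed, and RNA was extracted from whole seedlings. The single mutants val1 and val2, with 3 libraries each, enter below only where the double mutant is set against them.

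VAL1 and VAL2 encode related repressors whose B3 domain binds the RY element of target genes and which work with Polycomb complexes and histone deacetylases. Their best known targets in Arabidopsis are the regulators of seed maturation (LEC1, LEC2, FUS3 and ABI3), which drive storage protein, oil and desiccation genes in the embryo, and the flowering repressor FLC. Seedlings that lose both genes are known to keep embryonic traits, and in the wild type the seed programme is shut off around germination.

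Levels are FPKM (fragments per kilobase of transcript, scaled to the fragments mapped in the library) per gene. A gene is listed at 0 in a library where no locus of the authors' table was assigned to it. Differences are on the scale of log2(FPKM + 1), val1 val2 minus WT, with their standard error, and are called at an adjusted p under 0.05 (limma, two-sided, Benjamini-Hochberg adjustment over all genes tested); every adjusted p below comes from that fit unless another is named. For a gene listed at 0 in WT no fold change is given, and the list medians below then depend on the pseudocount of 1 FPKM.

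The libraries listed 20211, 20079 and 20293 loci in val1 val2 and 19347, 19344 and 19296 loci in WT. The depth implied by the tables was 9.76, 9.38 and 10.4 M fragments (M, 1e6) in val1 val2 and 10.1, 12.1 and 10.6 M in WT. The 10 loci of highest FPKM held 14.8%, 14.8% and 10.9% of the summed FPKM in val1 val2 libraries, against 6.42%, 7.75% and 5.92% in WT libraries. The 3 val1 val2 libraries were less alike than the WT libraries. The median gene had a standard deviation of 0.267 log2 units in val1 val2 and 0.139 in WT, over 15399 genes with 6 values. Replicate 3 of val1 val2 stood nearest to WT, in 62.7% of the genes called higher and 78.8% of those called lower that had 3 val1 val2 values. Its Pearson correlation with the WT libraries across genes was 0.757 to 0.770, against 0.628 to 0.638 for val1 val2 replicate 1.

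The targeted genes were first read in every library. VAL1 had 13.2, 11.1 and 22.6 FPKM in val1 val2 libraries, against 14.5, 17.7 and 17.3 FPKM in WT libraries, with overlapping groups, and did not pass the test (log2 difference -0.13 ± 0.26, adjusted p = 0.70). The assembled VAL1 locus began at position 12982815 of chromosome 2 (TAIR10, as the files give it) in val1 val2 replicates 1 and 2, where it had 26.6 and 22.3 FPKM. In val1 val2 replicate 3 the locus ran unbroken from 12980713 to 12985219 at 24.3 FPKM, as it did in the WT libraries, where it began at 12980545, 12980525 and 12980516. VAL2 had 12.7, 13.2 and 12.6 FPKM in val1 val2 libraries, against 21.8, 22.0 and 17.7 FPKM in WT libraries, and was called lower (log2 difference -0.63 ± 0.13, adjusted p = 0.0092). A gene's level here is the sum over its loci of FPKM times the share of the gene covered. With the FPKM of its largest locus as listed instead, VAL1 was called higher (log2 difference 0.48, adjusted p = 0.0271) and VAL2 was not called (log2 difference -0.42, adjusted p = 0.117). The VAL2 locus on chromosome 4 ended at 15483301 in val1 val2 replicate 1, while it ended at 15485127 and 15485273 in val1 val2 replicates 2 and 3 and between 15485150 and 15485353 in WT libraries. Transcript levels therefore do not check the label of every library, and the unbroken VAL1 locus of val1 val2 replicate 3 is that of the library nearest to WT. Results are given with this library, and without it where that ends a call or moves a count by over 1.5 times. Genes with values in 2 val1 val2 libraries, replicate 3 among them, could not be tested without it. Of the genes named, these include SESA1 to SESA4, WOX8, PORC, LHY, EDS1 and GL2. VAL3, the third member of the family, had 0, 0 and 1.13 FPKM in val1 val2 libraries, against 1.98, 1.55 and 3.49 FPKM in WT libraries (log2 difference -1.33 ± 0.37, adjusted p = 0.023); this call was lost without val1 val2 replicate 1 or 2 or WT replicate 1 or 3 (adjusted p = 0.058 to 0.079).

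Of 17028 genes tested, 8776 were called (51.5%), 3818 higher in val1 val2 (22.4%) and 4958 lower (29.1%). A difference of at least 2-fold on the log2(FPKM + 1) scale was reached by 5286 of the called genes (31.0%), of which 2526 were higher (14.8%) and 2760 lower (16.2%). The groups did not overlap in 11167 genes (65.6%). The median log2 difference of all genes tested was -0.13. Large differences ran mostly upward. Among the called genes, 673 were higher and 131 lower by at least 3 log2 units, 215 were higher and 5 lower by at least 5 units, and 45 were higher and 0 lower by at least 8 units. Separately from any test, 677 genes had at least 1 FPKM in each val1 val2 library while listed at 0 in each WT library, and 54 of these reached 100 FPKM in each. The reverse held for 178 genes. Since so many genes were called, the count of a gene list has to be read against 22.4% called higher and 29.1% called lower. Members listed at 0 in WT passed the filter on low values through the val1 val2 libraries alone, so their counts describe the list and are no separate support. A gene listed at 0 in every library of a group has no spread there. Its adjusted p can therefore be too small and only describes the listed values. Since whole seedlings were sampled, fewer cells of a type and less RNA per cell cannot be told apart in any of these values.

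**Figure D1:**
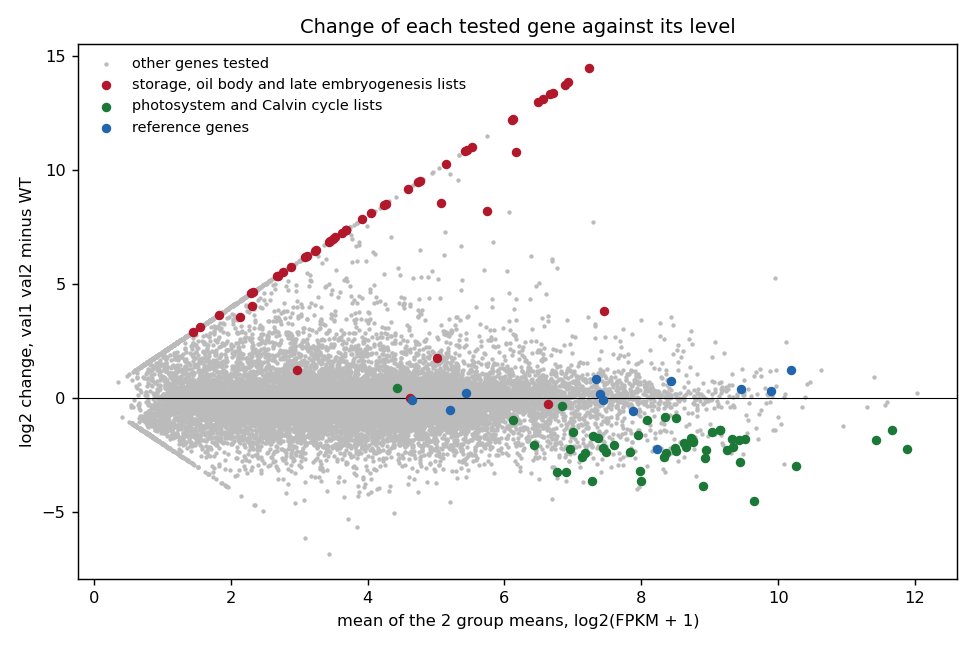
Difference between val1 val2 and WT (vertical axis, log2(FPKM + 1)) against the mean of both group means (horizontal axis, log2(FPKM + 1)) for each of 17028 genes tested. Members of the storage, oil body and late embryogenesis lists lie at or above 0 except LEA14 at -0.29, many on the upper edge formed by genes listed at 0 in WT, and members of the photosystem and Calvin cycle lists lie below 0 except LHCB2.1 at 0.44.

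Transcripts of the embryonic master regulators were present in val1 val2 seedlings and not listed in WT. LEC1, a nuclear factor Y subunit that starts the maturation programme, had 18.7, 15.0 and 14.2 FPKM in val1 val2 libraries and was listed at 0 in every WT library (adjusted p = 1.2e-05). FUS3, a B3 factor of embryo maturation, had 89.9, 79.6 and 66.8 FPKM in val1 val2 libraries and was listed at 0 in every WT library (adjusted p = 2.7e-06). ABI3, the B3 factor that couples abscisic acid to storage gene expression, had 41.6, 44.6 and 29.3 FPKM in val1 val2 libraries and was listed at 0 in every WT library (adjusted p = 1.0e-05). LEC2, the remaining B3 factor of this group, had only 2.52, 1.62 and 0.883 FPKM in val1 val2 libraries and was listed at 0 in every WT library; it did not reach the filter and was not tested. All 4 genes were lowest in val1 val2 replicate 3.

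Of 22 members of the seed maturation regulator list, 16 were tested; 3 lacked a value and 3 were too low. Of those tested, 12 were called higher and 3 lower, where 22.4% and 29.1% of all genes tested were, and the median difference was 4.27. DOG1, which sets seed dormancy, had 138, 105 and 49.8 FPKM in val1 val2 libraries and was listed at 0 in every WT library (adjusted p = 5.0e-05), and replicate 3 had less than either other val1 val2 library. The bZIP factor BZIP67, a seed-specific activator, had 41.5, 37.6 and 27.9 FPKM in val1 val2 libraries and was listed at 0 in every WT library (adjusted p = 9.1e-06). AGL15, a MADS-box gene that promotes somatic embryo formation, had 93.8, 81.0 and 55.2 FPKM in val1 val2 libraries, against 3.33, 2.80 and 3.05 FPKM in WT libraries; the groups were far apart (log2 difference 4.23 ± 0.21, adjusted p = 3.5e-05). The AP2 factor BBM, which can induce embryos on vegetative tissue, had 38.9, 28.6 and 21.8 FPKM in val1 val2 libraries, against 0.187, 0 and 0.523 FPKM in WT libraries (log2 difference 4.62 ± 0.26, adjusted p = 5.2e-05). The WT libraries were near 0 for BBM. WRI1, the AP2 factor that activates fatty acid synthesis, had 49.8, 52.5 and 25.4 FPKM in val1 val2 libraries, against 4.98, 4.53 and 4.94 FPKM in WT libraries (log2 difference 2.84 ± 0.28, adjusted p = 5.1e-04), and here too replicate 3 was the lowest of the val1 val2 libraries. The members called lower were BZIP53, BZIP25 and AGL18. BZIP53, a bZIP partner of ABI3 that is also expressed in vegetative tissue, had 46.8, 49.8 and 64.2 FPKM in val1 val2 libraries, against 90.8, 85.7 and 96.2 FPKM in WT libraries (log2 difference -0.76 ± 0.16, adjusted p = 0.0078). AGL18, a relative of AGL15, had 4.54, 4.30 and 5.72 FPKM in val1 val2 libraries, against 11.4, 9.08 and 7.94 FPKM in WT libraries (log2 difference -0.83 ± 0.18, adjusted p = 0.0093).

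**Figure D2:**
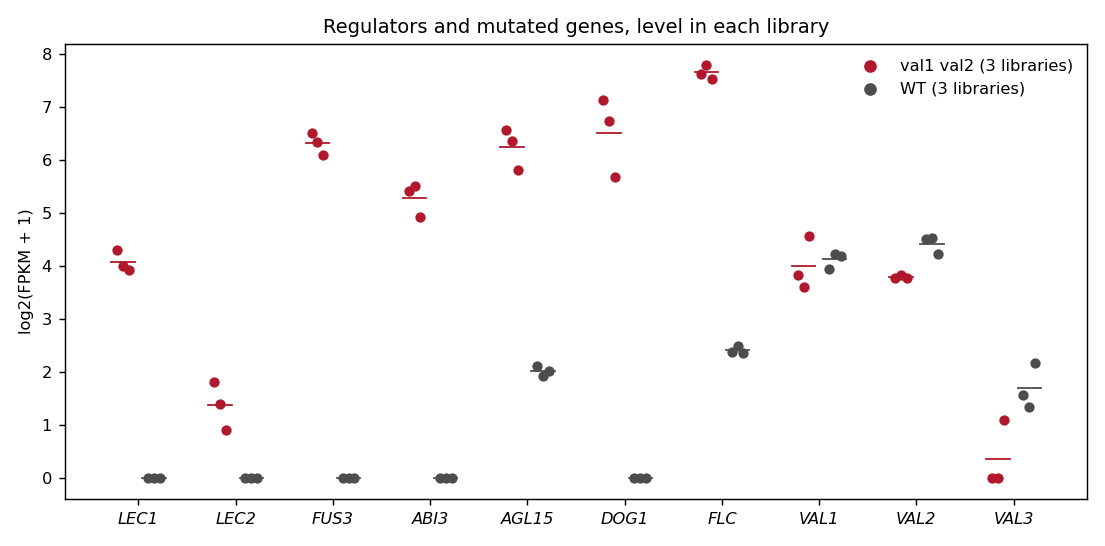
Level of each gene (vertical axis, log2(FPKM + 1)) in the 3 val1 val2 libraries (red, left) and the 3 WT libraries (grey, right), with each library as a point and the group mean as a line. LEC1, LEC2, FUS3, ABI3 and DOG1 lie at 0 in all WT libraries, AGL15 and FLC are separated between groups, and VAL1 overlaps.

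Genes for seed storage proteins held most of the highest levels in the double mutant. All 13 members of this list were tested and called higher, with a median level of 5056 FPKM in val1 val2 and 0 in WT (median difference 12.22). The cruciferin gene CRC, for a 12S globulin, had 9861, 10608 and 6836 FPKM in val1 val2 libraries and was listed at 0 in every WT library (adjusted p = 1.2e-06). CRA1, another cruciferin gene, had 9319, 9000.1 and 6237 FPKM in val1 val2 libraries and was listed at 0 in every WT library (adjusted p = 1.2e-06). PAP85, for a vicilin-like globulin, had 3316, 2034 and 1029 FPKM in val1 val2 libraries and was listed at 0 in every WT library (adjusted p = 1.2e-05), with replicate 3 at the bottom of the val1 val2 range. The 2S albumin genes SESA1 to SESA4 lie next to each other and are near-identical copies, so reads may be divided between them. No locus was assigned to them in val1 val2 replicate 1, and they rest on 2 val1 val2 values. SESA3 had 34013 FPKM in replicate 2 and 15296 FPKM in replicate 3 of val1 val2, the highest value of any gene in either library, and was listed at 0 in every WT library (adjusted p = 9.8e-06). Without val1 val2 replicate 3, 8 of the 13 genes could be tested and all 8 were called higher.

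Oil body genes were high in the same libraries. Of 13 members, 10 were tested (2 lacked a value, 1 was too low) and 10 were called higher, with a median level of 565 FPKM in val1 val2 and 0 in WT. Oleosins coat the oil bodies of the embryo. OLEO1 had 15391, 11618 and 7210.1 FPKM in val1 val2 libraries and was listed at 0 in every WT library (adjusted p = 2.0e-06). OLEO2 had 8019, 5217 and 2764 FPKM in val1 val2 libraries and was listed at 0 in every WT library (adjusted p = 5.8e-06). The caleosin CLO1, an oil body protein that binds calcium, had 1022, 771 and 453 FPKM in val1 val2 libraries and was listed at 0 in every WT library (adjusted p = 6.3e-06). In each of these genes the val1 val2 libraries were ordered alike, with replicate 1 highest and replicate 3 lowest. The smallest difference of the list was that of RD20, a caleosin also made in stressed leaves, with 13.5, 11.8 and 8.49 FPKM in val1 val2 libraries, against 5.30, 6.38 and 1.90 FPKM in WT libraries (log2 difference 1.24 ± 0.38, adjusted p = 0.032).

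Late embryogenesis abundant (LEA) proteins protect the embryo during drying. Of 29 members of the list, 28 were tested, and 26 were called higher and 0 lower, with a median level of 81.8 FPKM in val1 val2 and 0 in WT (median difference 5.97). TIP3;1, a water channel of the protein storage vacuole, had 1609.7, 1492 and 797 FPKM in val1 val2 libraries and was listed at 0 in every WT library (adjusted p = 3.8e-06). The LEA gene EM6 had 51.1, 21.2 and 12.9 FPKM in val1 val2 libraries and was listed at 0 in every WT library (adjusted p = 4.8e-04), with replicate 1 well above both other val1 val2 libraries. HSFA9, a seed heat shock factor, was already present in WT and had 764, 832 and 441 FPKM in val1 val2 libraries, against 47.9, 55.8 and 36.8 FPKM in WT libraries (log2 difference 3.80 ± 0.29, adjusted p = 1.7e-04). The members that did not pass were XERO2 and LEA14. XERO2, a dehydrin of cold and drought, had 30.8, 27.4 and 15.2 FPKM in val1 val2 libraries, against 31.5, 25.1 and 16.3 FPKM in WT libraries (adjusted p = 0.9998), and LEA14 had 80.3, 72.4 and 123 FPKM in val1 val2 libraries, against 97.6, 151 and 88.8 FPKM in WT libraries (log2 difference -0.29 ± 0.28, adjusted p = 0.42).

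Over the 44 members of the 3 lists of storage, oil body and LEA genes with a value in all 6 libraries, the share of the summed FPKM was 6.13%, 5.43% and 3.62% in val1 val2 libraries, against 0.0206%, 0.0285% and 0.0176% in WT libraries. The SESA1 to SESA4 block is left out of these shares. With every member listed, this block included, the shares were 13.1% and 8.48% in val1 val2 replicates 2 and 3, against 0.0208%, 0.0288% and 0.0179% in WT. Photosystem and Calvin cycle genes took a smaller share in val1 val2, with 41 members holding 0.564%, 0.838% and 1.83% in val1 val2, against 4.97%, 5.07% and 5.06% in WT. The val1 val2 library with the smallest share of seed transcripts, replicate 3, had the largest share of photosynthesis transcripts.

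**Figure D3:**
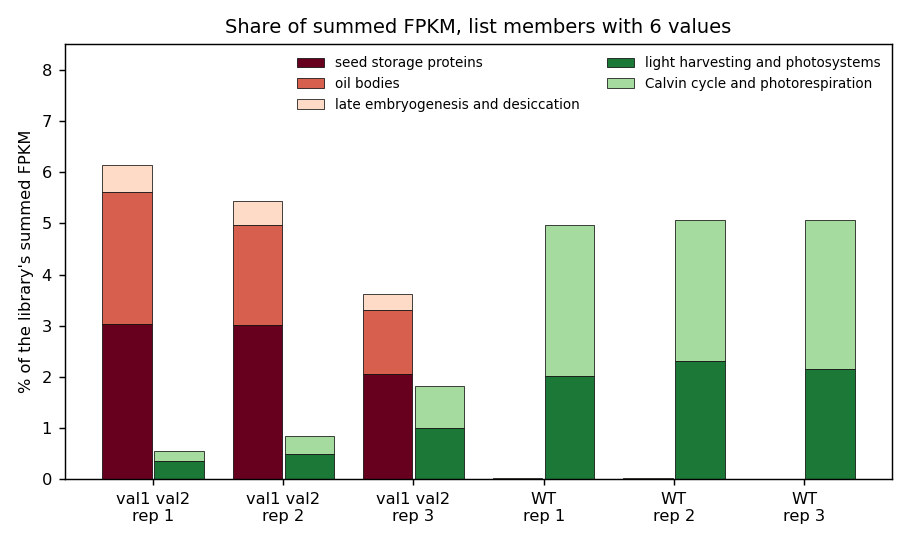
Percent of each library's summed FPKM (vertical axis, from 0) held by list members with a value in all 6 libraries, with seed lists on the left and photosynthesis lists on the right of each library. The seed lists reach 3.62% to 6.13% in val1 val2 and stay under 0.03% in WT, while the photosynthesis lists hold 0.564% to 1.83% in val1 val2 and 4.97% to 5.07% in WT.

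The double mutant was set against the single mutants by a contrast over all 12 libraries, val1 val2 minus val1 minus val2 plus WT, which asks whether losing VAL1 changed a gene differently with and without VAL2. Of 17096 genes tested, 8044 were called in this contrast (47.1%), 3707 of them positive (21.7%) and 4337 negative (25.4%). This fit used a spread per gene shared by all 12 libraries, though val1 val2 libraries varied more than WT libraries (median standard deviation 0.267 and 0.139). Its errors and adjusted p can therefore be too small. With that shared spread, the comparison of val1 val2 with WT called 10134 genes, against 8776 in the fit on 6 libraries. LEC1, LEC2, FUS3 and ABI3 were listed at 0 in all 6 single-mutant libraries as well as in WT, and the contrast was called for the 3 of them that were tested (adjusted p = 5.0e-08 for LEC1, 2.2e-09 for FUS3 and 3.0e-08 for ABI3, limma). These 3 genes passed the filter through val1 val2 alone, and libraries at 0 add no spread. Their calls therefore describe the listed values and are no separate support. Storage and oil body genes were at low levels or listed at 0 in the single mutants, and OLEO2 and CLO1 were listed at 0 in every val2 library. CRC had 9861, 10608 and 6836 FPKM in val1 val2, 10.3, 11.9 and 10.3 FPKM in val1, 2.01, 1.62 and 1.07 FPKM in val2 and 0 in WT (contrast 8.22 ± 0.25, adjusted p = 4.2e-09). OLEO1 had 15391, 11618 and 7210.1 FPKM in val1 val2, 9.13, 8.93 and 9.91 FPKM in val1, 2.10, 1.72 and 1.77 FPKM in val2 and 0 in WT (contrast 8.53 ± 0.30, adjusted p = 1.3e-08). AGL15 had 93.8, 81.0 and 55.2 FPKM in val1 val2, 18.6, 17.1 and 14.6 FPKM in val1, 3.50, 3.81 and 2.81 FPKM in val2 and 3.33, 2.80 and 3.05 FPKM in WT (contrast 2.0 ± 0.26, adjusted p = 1.4e-04). The contrast was positive and called for 13 of 13 storage genes, 9 of 10 oil body genes and 28 of 28 LEA genes tested. Most members of these 3 lists were listed at 0 in WT. Members also at 0 in the single mutants passed the filter through val1 val2 alone. These counts therefore describe the listed values and are no separate support. These LEA genes include XERO2 and LEA14, not called between val1 val2 and WT, whose means in both single mutants lay below WT. XERO2 averaged 24.5 FPKM in val1 val2, 12.5 in val1, 13.6 in val2 and 24.3 in WT. A positive contrast is thus not always a rise in val1 val2. It was negative and called for 25 of 26 photosystem and 19 of 20 Calvin cycle genes tested.

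Genes that make fatty acids and assemble oil moved less than the oil body genes. Of 27 members, 26 were tested, 15 were called higher and 2 lower, with a median difference of 0.67. FAE1, the elongase that makes the very long chain fatty acids of seed oil, had 146, 119 and 66.7 FPKM in val1 val2 libraries and was listed at 0 in every WT library (adjusted p = 2.0e-05). Its lowest val1 val2 library was replicate 3, still far above WT. The endoplasmic desaturase FAD3 had 553, 438 and 347 FPKM in val1 val2 libraries, against 114, 109 and 119 FPKM in WT libraries (log2 difference 1.93 ± 0.19, adjusted p = 5.1e-04). BCCP2, a subunit of the plastid acetyl-CoA carboxylase, had 119.7, 129 and 114 FPKM in val1 val2 libraries, against 29.3, 26.2 and 31.9 FPKM in WT libraries (log2 difference 2.02 ± 0.13, adjusted p = 8.5e-05). AT5G16240 had 62.8, 50.3 and 40.7 FPKM in val1 val2 libraries, against 11.7, 14.3 and 11.0 FPKM in WT libraries (log2 difference 1.96 ± 0.19, adjusted p = 4.9e-04). Among the enzymes that add the last acyl chain of triacylglycerol, DGAT1 had 70.6, 71.4 and 54.9 FPKM in val1 val2 libraries, against 27.5, 28.3 and 58.3 FPKM in WT libraries and did not pass (log2 difference 0.85 ± 0.31, adjusted p = 0.057), while DGAT3 had 58.5, 47.9 and 139 FPKM in val1 val2 libraries, against 327, 309 and 340.4 FPKM in WT libraries and was called lower (log2 difference -2.14 ± 0.38, adjusted p = 0.0049).

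Genes that process and sort storage proteins included 8 of 12 tested members called higher and 1 lower, with 14 members in the list and a median difference of 0.86. BETA-VPE, the seed vacuolar processing enzyme that cleaves storage globulins, had 305, 299 and 142 FPKM in val1 val2 libraries, against 0.692, 0.907 and 0.690 FPKM in WT libraries (log2 difference 7.07 ± 0.31, adjusted p = 2.1e-05). DELTA-VPE, the form of the seed coat, had 5.65, 6.63 and 6.64 FPKM in val1 val2 libraries and was listed at 0 in every WT library (adjusted p = 2.8e-05). GAMMA-VPE, the form of vegetative tissue, had 41.2, 40.1 and 50.9 FPKM in val1 val2 libraries, against 67.7, 65.4 and 117 FPKM in WT libraries and was called lower (log2 difference -0.86 ± 0.25, adjusted p = 0.029), a call lost without val1 val2 replicate 1 or 2 (adjusted p = 0.080 and 0.091). PDIL1-1, a disulfide isomerase of the endoplasmic reticulum, had 275, 382 and 254 FPKM in val1 val2 libraries, against 92.9, 92.7 and 88.6 FPKM in WT libraries (log2 difference 1.70 ± 0.18, adjusted p = 6.6e-04), while the chaperones BIP1 and BIP2, near-identical copies, did not pass.

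Abscisic acid (ABA) genes changed in both directions. Of 14 genes of ABA synthesis and breakdown, 9 were tested, 4 were called higher and 1 lower. NCED9, the seed form of the enzyme that commits carotenoids to ABA, had 4.77, 6.89 and 6.79 FPKM in val1 val2 libraries and was listed at 0 in every WT library (adjusted p = 6.9e-05). CYP707A2, which inactivates ABA in seeds, had 24.2, 20.5 and 17.3 FPKM in val1 val2 libraries, against 1.03, 1.18 and 0.554 FPKM in WT libraries (log2 difference 3.50 ± 0.20, adjusted p = 5.1e-05). Synthesis and inactivation genes were thus both among those called higher. AAO3, the oxidase of the last step in leaves, was called lower, with 8.18, 4.03 and 5.21 FPKM in val1 val2 libraries, against 13.1, 19.2 and 17.3 FPKM in WT libraries (log2 difference -1.39 ± 0.26, adjusted p = 0.0056). Of 23 genes of ABA perception and signalling, 21 were tested, 8 were called higher and 10 lower, with a median difference of -0.53. The ABA receptor PYL8 had 27.9, 30.2 and 53.0 FPKM in val1 val2 libraries, against 142, 153 and 163 FPKM in WT libraries (log2 difference -2.07 ± 0.25, adjusted p = 0.0011); 5 other receptor genes, PYR1, PYL1, PYL5, PYL6 and PYL9, were also called lower, and PYL2 was called higher (log2 difference 1.67 ± 0.23, adjusted p = 0.0019). Among the PP2C phosphatases that the receptors inhibit, AHG3 had 96.5, 82.7 and 79.4 FPKM in val1 val2 libraries, against 27.0, 37.6 and 32.3 FPKM in WT libraries (log2 difference 1.40 ± 0.16, adjusted p = 9.6e-04), and AHG1, a seed form, had 5.98, 5.23 and 1.07 FPKM in val1 val2 libraries and was listed at 0 in every WT library (adjusted p = 0.0091), a call lost after quantile normalization (adjusted p = 0.056).

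Of 15 genes of gibberellin metabolism, 12 were tested, 9 were called higher and 1 lower, with a median difference of 1.40. Leaving out val1 val2 replicate 3, 2 were called lower. Gibberellin promotes germination and growth. GA20OX3, for an oxidase late in gibberellin synthesis, had 145, 118 and 82.0 FPKM in val1 val2 libraries and was listed at 0 in every WT library (adjusted p = 7.4e-06). GA1 and KS, for the synthases that make the gibberellin precursor, were both called higher; KS had 15.8, 16.0 and 12.9 FPKM in val1 val2 libraries, against 3.03, 2.64 and 3.70 FPKM in WT libraries (log2 difference 1.95 ± 0.16, adjusted p = 2.5e-04). GA3OX1, which makes the active hormone in seedlings, ran the other way and was listed at 0 in every val1 val2 library, against 6.42, 3.75 and 4.00 FPKM in WT libraries (adjusted p = 2.4e-04).

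Of 16 auxin synthesis and transport genes, 13 were tested, 6 were called higher and 4 lower, with a median difference of -0.02, close to that of all genes. The auxin synthesis gene YUC4, active in embryos and organ tips, had 15.4, 12.7 and 7.36 FPKM in val1 val2 libraries and was listed at 0 in every WT library (adjusted p = 1.4e-04). Of the efflux carriers, PIN2 was called higher and PIN3, PIN4 and PIN7 were called lower. PIN2 had 29.5, 30.5 and 18.1 FPKM in val1 val2 libraries, against 6.68, 5.07 and 6.22 FPKM in WT libraries (log2 difference 1.92 ± 0.23, adjusted p = 0.0010). PIN3 had 5.91, 11.4 and 22.9 FPKM in val1 val2 libraries, against 44.0, 81.0 and 89.1 FPKM in WT libraries (log2 difference -2.45 ± 0.49, adjusted p = 0.0072), with replicate 3 nearest to WT.

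FLC rose while the flowering promoters SOC1 and FT fell. FLC, the MADS-box repressor of flowering that vernalization silences, had 195, 221 and 184 FPKM in val1 val2 libraries, against 4.18, 4.59 and 4.16 FPKM in WT libraries (log2 difference 5.24 ± 0.12, adjusted p = 2.7e-06). Its lowest val1 val2 library, replicate 3, was far above every WT library. It had 24.5, 39.5 and 20.9 FPKM in val1 and 4.24, 4.56 and 4.02 FPKM in val2, and the contrast over 12 libraries was 2.83 ± 0.27 (adjusted p = 1.6e-05). Of its relatives, MAF5 had 35.5, 36.2 and 29.9 FPKM in val1 val2 libraries, against 10.6, 9.70 and 10.2 FPKM in WT libraries (log2 difference 1.64 ± 0.13, adjusted p = 2.0e-04), MAF4 was also called higher and FLM and MAF3 were called lower. MAF5 averaged 35.4 FPKM in val1 and 7.70 FPKM in val2. Its contrast over 12 libraries was not called (0.30 ± 0.16, adjusted p = 0.14, limma). SVP, a partner of FLC in repression, was called lower, with 3.58, 4.97 and 9.02 FPKM in val1 val2 libraries, against 33.6, 50.9 and 47.8 FPKM in WT libraries (log2 difference -2.77 ± 0.32, adjusted p = 8.8e-04). SOC1, an activator of flowering that FLC and SVP repress, had 0.810, 0 and 1.89 FPKM in val1 val2 libraries, against 16.3, 16.4 and 15.8 FPKM in WT libraries (log2 difference -3.31 ± 0.37, adjusted p = 8.0e-04). FT, the mobile flowering signal, was listed at 0 in every val1 val2 library and had 4.79, 3.00 and 1.74 FPKM in WT libraries (adjusted p = 0.0018). In all, 17 of 23 members were tested, 3 were called higher and 8 lower, with a median difference of -0.46.

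Of 24 genes of Polycomb complexes and their partners, 19 were tested, 7 were called higher and 4 lower, with a median difference of 0.29. Of the PRC1 ring-finger genes, 4 were called higher. BMI1A had 31.7, 32.3 and 26.2 FPKM in val1 val2 libraries, against 6.67, 6.50 and 6.83 FPKM in WT libraries (log2 difference 2.01 ± 0.13, adjusted p = 9.6e-05), DRIP1 had 21.3, 16.5 and 14.5 FPKM in val1 val2 libraries, against 7.15, 6.32 and 6.61 FPKM in WT libraries (log2 difference 1.25 ± 0.17, adjusted p = 0.0016), and RING1A and RING1B were also called higher. The groups overlapped in none of these 4 genes, nor in 65.6% of all genes tested. LHP1, which reads the Polycomb mark, had 10.3, 10.9 and 10.1 FPKM in val1 val2 libraries, against 18.5, 17.6 and 18.6 FPKM in WT libraries and was called lower (log2 difference -0.75 ± 0.11, adjusted p = 0.0024). The PRC2 subunits SWN, EMF2, VRN2 and FIE did not pass, while MSI1 was called higher (log2 difference 0.52 ± 0.13, adjusted p = 0.018). VIN3, which cold induces and which acts at FLC, had 6.65, 6.97 and 8.38 FPKM in val1 val2 libraries and was listed at 0 in every WT library (adjusted p = 2.7e-05). ULT1, which counters Polycomb silencing, had 49.8, 42.3 and 33.2 FPKM in val1 val2 libraries, against 5.58, 4.39 and 7.11 FPKM in WT libraries (log2 difference 2.68 ± 0.22, adjusted p = 2.2e-04). The histone demethylase gene REF6 had 4.68, 5.69 and 6.21 FPKM in val1 val2 libraries, against 11.6, 11.0 and 11.0 FPKM in WT libraries and was called lower (log2 difference -0.91 ± 0.14, adjusted p = 0.0026).

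Meristem and embryo identity genes were mostly higher, with 14 of 16 tested members called higher and 1 lower of 20 in the list, and a median difference of 2.66. WOX8, expressed in the basal lineage of the young embryo, had 51.9 and 30.7 FPKM in the val1 val2 libraries with a value (replicates 2 and 3) and was listed at 0 in WT (adjusted p = 7.6e-05). PLT5, an AP2 factor of organ initiation and regeneration, had 81.1, 70.8 and 64.5 FPKM in val1 val2 libraries, against 1.19, 1.15 and 2.10 FPKM in WT libraries (log2 difference 4.90 ± 0.19, adjusted p = 1.4e-05). CUC1, which separates the cotyledons, had 21.8, 14.2 and 12.6 FPKM in val1 val2 libraries, against 0, 1.13 and 0.759 FPKM in WT libraries (log2 difference 3.43 ± 0.34, adjusted p = 4.8e-04). In these 3 genes every val1 val2 value was far above every WT value. The shoot meristem gene STM had 27.1, 14.9 and 15.3 FPKM in val1 val2 libraries, against 4.23, 4.81 and 4.32 FPKM in WT libraries (log2 difference 1.83 ± 0.24, adjusted p = 0.0015), and the stem cell genes WUS and CLV3, listed at 0 in WT, had 2.47, 1.25 and 1.58 FPKM and 8.17, 3.55 and 2.90 FPKM in val1 val2. CLV1, the receptor of the CLV3 peptide, was the member called lower, with 8.10, 7.76 and 12.8 FPKM in val1 val2 libraries, against 18.0, 17.7 and 19.4 FPKM in WT libraries (log2 difference -0.91 ± 0.20, adjusted p = 0.011). Cell division genes had smaller differences, with 7 of 15 tested members called higher, 1 lower and a median difference of 0.39; the largest was the kinase gene CDKB1;1, with 9.76, 8.70 and 8.93 FPKM in val1 val2 libraries, against 4.19, 3.05 and 2.98 FPKM in WT libraries (log2 difference 1.21 ± 0.16, adjusted p = 0.0014).

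Of 12 floral organ genes, 6 were tested, 2 were called higher and 2 lower. SEP1 and SEP2, co-factors of floral MADS proteins, were listed at 0 in WT and had 1.70, 2.01 and 1.50 FPKM and 7.22, 6.98 and 1.45 FPKM in val1 val2. SEP4 was listed at 0 in every val1 val2 library and had 7.64, 7.01 and 7.21 FPKM in WT (adjusted p = 1.8e-05). Of 7 genes of the change from juvenile to adult leaves, 3 were tested and 2 called lower; SPL9, which promotes adult leaves, had 0.832, 1.18 and 1.55 FPKM in val1 val2 libraries, against 4.14, 3.39 and 3.83 FPKM in WT libraries (log2 difference -1.14 ± 0.17, adjusted p = 0.0025).

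**Figure D4:**
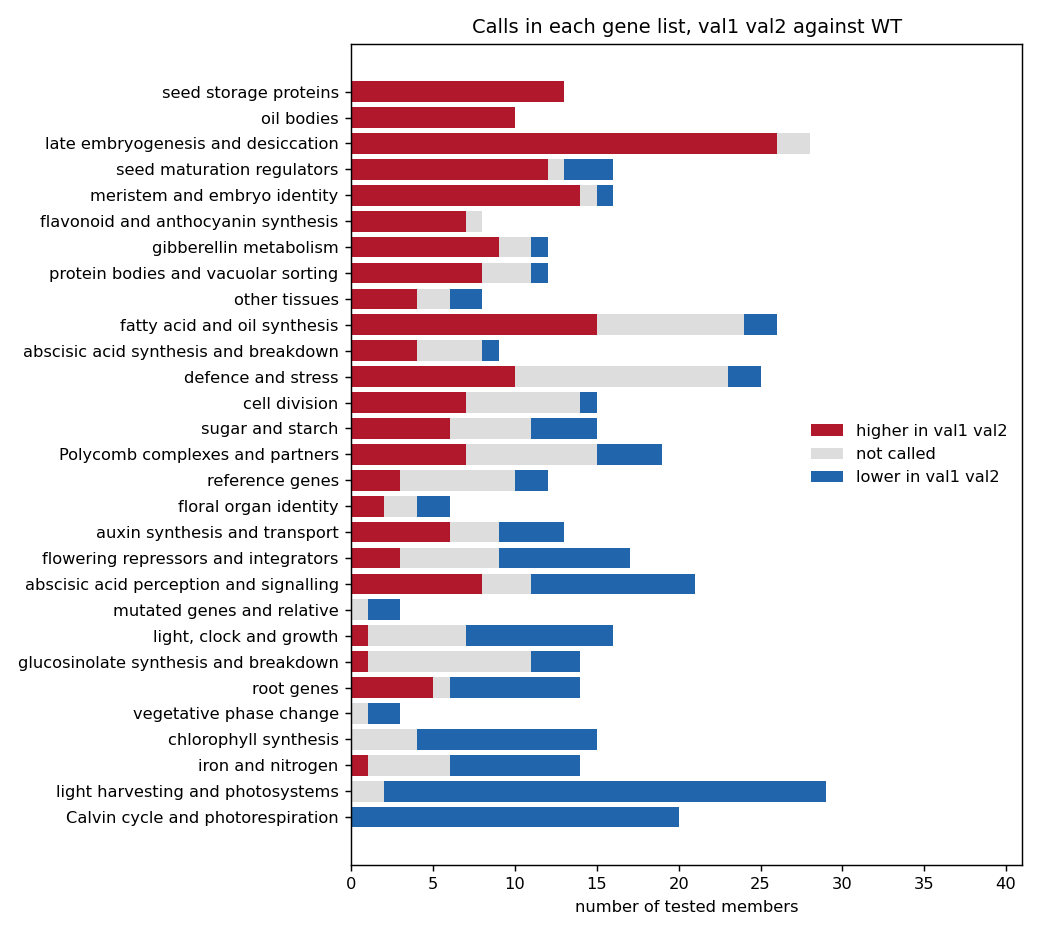
Number of tested members (horizontal axis) of each gene list that were called higher in val1 val2 (red), not called (grey) and called lower in val1 val2 (blue), against WT. Lists are ordered by their median difference, with seed storage proteins at the top, where 13 of 13 were higher, and the Calvin cycle at the bottom, where 20 of 20 were lower.

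Most photosynthesis genes were lower in val1 val2. Of 34 light harvesting and photosystem genes, 29 were tested (5 lacked a value), 0 were called higher and 27 lower, with a median level of 221 FPKM in val1 val2 and 785 FPKM in WT and a median difference of -1.81. PSBQA, a subunit of the oxygen-evolving complex, had 114, 168 and 379.8 FPKM in val1 val2 libraries, against 1213, 1253 and 1193 FPKM in WT libraries (log2 difference -2.64 ± 0.42, adjusted p = 0.0030). LHCA3, an antenna protein of photosystem I, had 98.4, 125 and 235 FPKM in val1 val2 libraries, against 743, 782 and 750.1 FPKM in WT libraries (log2 difference -2.40 ± 0.32, adjusted p = 0.0015). ATPC1, a subunit of the chloroplast ATP synthase, had 69.3, 100.4 and 142 FPKM in val1 val2 libraries, against 507, 533 and 504 FPKM in WT libraries (log2 difference -2.36 ± 0.26, adjusted p = 7.6e-04). In each, replicate 1 was lowest and replicate 3 nearest to WT without overlap. The members that did not pass were LHCB3 (log2 difference -0.34 ± 0.19, adjusted p = 0.17) and LHCB2.1, with 19.4, 24.5 and 29.4 FPKM in val1 val2 libraries, against 16.3, 19.4 and 16.9 FPKM in WT libraries (log2 difference 0.44 ± 0.18, adjusted p = 0.079); LHCB2.1 was called higher after centring each library on its median (adjusted p = 0.033), after quantile normalization and in 3 other alternatives. LHCB2.1 has near-identical copies within LHCB2, so reads may be divided unevenly between them. LHCB4.3, an antenna gene of photosystem II outside the list and named after its values were seen, was called higher, with 122, 86.1 and 90.6 FPKM in val1 val2 libraries, against 12.8, 13.7 and 12.2 FPKM in WT libraries (log2 difference 2.85 ± 0.17, adjusted p = 6.0e-05). Of all 9 genes with an LHCB symbol that were tested, 1 was called higher and 4 lower (median difference -0.87).

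Of 25 Calvin cycle and photorespiration genes, 20 were tested (4 lacked a value, 1 was too low), and all 20 were called lower, with a median difference of -2.59. The Rubisco small subunit gene RBCS2B, 1 of 4 near-identical copies here, had 80.8, 121 and 466 FPKM in val1 val2 libraries, against 4144, 4143 and 3312 FPKM in WT libraries (log2 difference -4.52 ± 0.62, adjusted p = 0.0018). RBCS1A, the most abundant copy in WT, had 929, 1629 and 3376 FPKM in val1 val2 libraries, against 8091, 7703 and 9036 FPKM in WT libraries (log2 difference -2.26 ± 0.46, adjusted p = 0.0076). The carbonic anhydrase gene CA1 had 31.9, 75.3 and 149.6 FPKM in val1 val2 libraries, against 948, 908 and 836 FPKM in WT libraries (log2 difference -3.63 ± 0.51, adjusted p = 0.0020). The groups did not overlap in any of these 3 genes, nor in 65.6% of all genes tested. AGT, a photorespiratory aminotransferase of peroxisomes, had 21.5, 34.8 and 105 FPKM in val1 val2 libraries, against 450.0, 481 and 749 FPKM in WT libraries (log2 difference -3.63 ± 0.56, adjusted p = 0.0028). For RBCS2B the spread between val1 val2 libraries was wide, with replicate 3 several times above replicate 1, but its highest val1 val2 value lay far below the lowest WT value.

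Chlorophyll synthesis genes were lower too, with 11 of 15 tested members called lower and 0 higher of 17 in the list (median difference -1.47). PORC, a light-dependent oxidoreductase of mature leaves, had 4.31 and 17.4 FPKM in val1 val2 replicates 1 and 3, against 69.8, 63.6 and 129.7 FPKM in WT libraries (log2 difference -3.09 ± 0.60, adjusted p = 0.0091). CHLI2, a subunit of magnesium chelatase, had 3.26, 5.20 and 8.99 FPKM in val1 val2 libraries, against 30.3, 32.4 and 28.6 FPKM in WT libraries (log2 difference -2.29 ± 0.30, adjusted p = 0.0015). HEMA1, the first committed gene of the pathway, did not pass, with 47.4, 57.7 and 84.4 FPKM in val1 val2 libraries, against 43.3, 43.1 and 50.3 FPKM in WT libraries (log2 difference 0.42 ± 0.22, adjusted p = 0.15). Of 19 light, clock and growth genes, 16 were tested, 1 was called higher and 9 lower, with a median difference of -0.80. PIF5, a phytochrome-interacting factor that promotes elongation, had 2.27, 2.80 and 6.69 FPKM in val1 val2 libraries, against 19.4, 24.8 and 25.0 FPKM in WT libraries (log2 difference -2.39 ± 0.33, adjusted p = 0.0019). GNC, a GATA factor of chloroplast development, had 1.90, 4.90 and 12.8 FPKM in val1 val2 libraries, against 16.0, 18.4 and 25.9 FPKM in WT libraries (log2 difference -1.74 ± 0.55, adjusted p = 0.036), a call lost on leaving out any library but val1 val2 replicate 3 (adjusted p = 0.067 to 0.11). LHY, the clock gene called higher, had 1.09 and 1.10 FPKM in val1 val2 replicates 2 and 3 and 0.233, 0.207 and 0 FPKM in WT, and lost its call with the FPKM of the largest locus (adjusted p = 0.0702) and after quantile normalization (adjusted p = 0.96).

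Of 6 nitrogen assimilation genes in the iron and nitrogen list, a grouping made after their values were seen, 5 were called lower. GLN2, the chloroplast glutamine synthetase, had 80.4, 122 and 289 FPKM in val1 val2 libraries, against 1029, 1030.1 and 862 FPKM in WT libraries (log2 difference -2.77 ± 0.45, adjusted p = 0.0033). NIA1, a nitrate reductase gene, had 43.2, 35.5 and 82.4 FPKM in val1 val2 libraries, against 364, 409 and 312 FPKM in WT libraries (log2 difference -2.81 ± 0.32, adjusted p = 8.4e-04). Both genes were well below WT in every val1 val2 library. IRT1, the root iron transporter, was listed at 0 in every val1 val2 library and had 29.5, 24.8 and 21.3 FPKM in WT (adjusted p = 8.7e-06). FER2, the seed form of the iron store ferritin, had 69.5 and 46.0 FPKM in val1 val2 replicates 1 and 2, against 1.06, 1.41 and 1.02 FPKM in WT (log2 difference 4.74 ± 0.23, adjusted p = 8.2e-05). Of 16 iron and nitrogen genes, 14 were tested, 1 was called higher and 8 lower, with a median difference of -1.68. Without val1 val2 replicate 3, 2 were called higher.

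Of 16 sugar and starch genes, 15 were tested, 6 were called higher and 4 lower, with a median difference of 0.38. SUS2, a sucrose synthase of developing seeds, had 71.6, 60.7 and 51.9 FPKM in val1 val2 libraries, against 0.725, 0.849 and 1.17 FPKM in WT libraries (log2 difference 5.02 ± 0.17, adjusted p = 9.1e-06). GBSS1, which makes amylose, had 43.1, 40.9 and 18.0 FPKM in val1 val2 libraries, against 1.17, 0.844 and 1.18 FPKM in WT libraries (log2 difference 3.99 ± 0.34, adjusted p = 2.7e-04). SWEET15, a sucrose exporter of the seed coat and senescing leaves, had 22.6, 18.5 and 6.65 FPKM in val1 val2 libraries and was listed at 0 in every WT library (adjusted p = 6.4e-04), while SWEET11, which loads sucrose into the phloem of leaves, had 12.0, 18.2 and 59.0 FPKM in val1 val2 libraries, against 127, 129 and 161 FPKM in WT libraries and was called lower (log2 difference -2.50 ± 0.54, adjusted p = 0.0097).

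**Figure D5:**
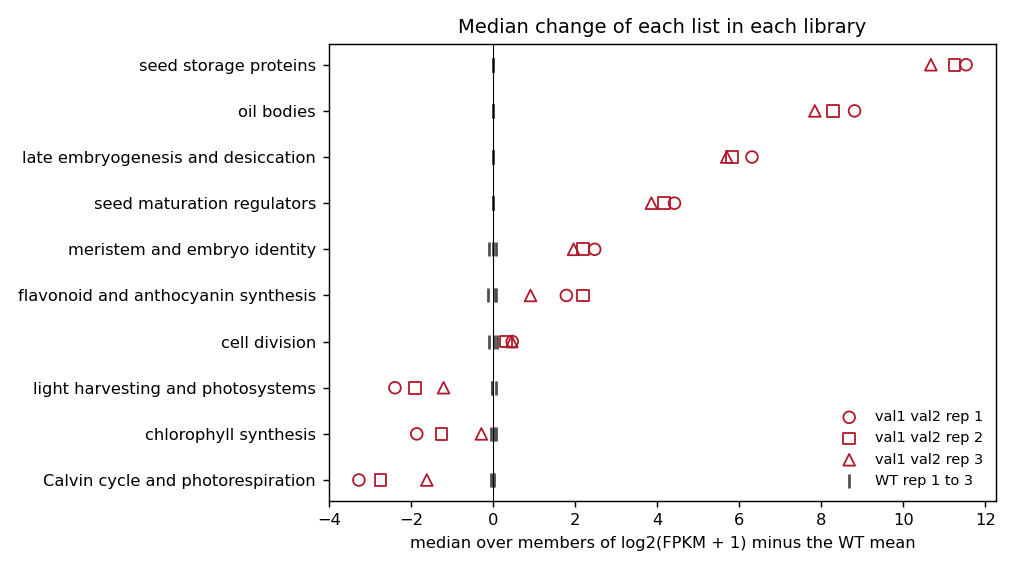
Median over the tested members of each list with 6 values of log2(FPKM + 1) minus the WT mean (horizontal axis), for each val1 val2 library (red symbols) and each WT library (grey ticks). In the seed storage list the medians were 11.53, 11.25 and 10.68 in val1 val2 replicates 1, 2 and 3, and in the Calvin cycle list -3.27, -2.75 and -1.62, with the WT libraries near 0.

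Replicate 3 of val1 val2 stood nearer to WT than the other two in genes called lower and in genes called higher. Its median difference from the WT mean was -0.77 over all genes called lower, against -1.29 in replicate 1 and -1.17 in replicate 2. Over the genes called higher the medians were 1.28 in replicate 3, 1.53 in replicate 1 and 1.41 in replicate 2. In the chlorophyll list it was -0.29 in replicate 3, against -1.86 in replicate 1 and -1.26 in replicate 2 of val1 val2. Not every list had this order. Cell division genes had medians of 0.47, 0.31 and 0.45 in val1 val2 replicates 1, 2 and 3. Replicate 3 was the farthest from WT in the defence and stress list (0.23, 0.58 and 0.91 in val1 val2 replicates 1, 2 and 3), in abscisic acid synthesis and breakdown (-0.04, 0.83 and 1.70) and in the Polycomb list (0.16, 0.02 and 0.40).

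Flavonoid genes were higher, with 7 of 8 tested members called higher and 0 lower of 15 in the list, and a median difference of 1.73; the other 7 members were too low to test. Without val1 val2 replicate 3, 1 member was called lower. F3H, for an early enzyme of the pathway, had 156, 137 and 81.5 FPKM in val1 val2 libraries, against 11.1, 10.3 and 8.45 FPKM in WT libraries (log2 difference 3.47 ± 0.26, adjusted p = 1.6e-04). CHS, for the first enzyme, had 217, 234 and 111 FPKM in val1 val2 libraries, against 78.4, 59.8 and 51.5 FPKM in WT libraries (log2 difference 1.50 ± 0.32, adjusted p = 0.0093). BAN and TT2, which act in the seed coat, were listed at 0 in every val1 val2 and WT library. Glucosinolate genes gave 1 called higher and 3 lower of 14 tested. CYP79B2, which starts indole glucosinolates, had 59.5, 50.4 and 85.3 FPKM in val1 val2 libraries, against 20.9, 16.1 and 16.8 FPKM in WT libraries (log2 difference 1.78 ± 0.22, adjusted p = 0.0012), and the myrosinase TGG1 had 156, 242 and 584 FPKM in val1 val2 libraries, against 889, 994 and 802 FPKM in WT libraries (log2 difference -1.66 ± 0.46, adjusted p = 0.024), a call lost on leaving out any library but val1 val2 replicate 3 (adjusted p = 0.052 to 0.080). Without val1 val2 replicate 3, 10 of the glucosinolate genes were called lower.

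Among defence and stress genes, 25 of 27 were tested, 10 were called higher and 2 lower, with a median difference of 0.46. PR1, the marker of salicylic acid responses, had 471, 364 and 243 FPKM in val1 val2 libraries and was listed at 0 in every WT library (adjusted p = 5.1e-06), as in all 6 single-mutant libraries. PR2, a glucanase gene of the same response, had 62.4, 58.7 and 44.4 FPKM in val1 val2 libraries and was listed at 0 in every WT library (adjusted p = 4.9e-06). Both were lowest in val1 val2 replicate 3 but far from the WT value. ICS1, which makes salicylic acid, had 16.6, 15.4 and 21.3 FPKM in val1 val2 libraries, against 3.04, 2.97 and 2.76 FPKM in WT libraries (log2 difference 2.25 ± 0.16, adjusted p = 1.3e-04), while PR5 did not pass (log2 difference 0.24 ± 0.20, adjusted p = 0.35). The stress gene RD29A was called lower, with 3.68, 4.58 and 6.58 FPKM in val1 val2 libraries, against 57.2, 69.2 and 29.9 FPKM in WT libraries (log2 difference -3.11 ± 0.34, adjusted p = 7.7e-04), and RD29B, its ABA-responsive neighbour, had 6.43, 5.26 and 4.54 FPKM in val1 val2 libraries and was listed at 0 in every WT library (adjusted p = 6.4e-05). EDS1, called lower here, has a near-identical copy and rests on 2 val1 val2 values. Its call was lost with replicate number added to the fit (adjusted p = 0.0995, limma). With replicate 3 of val1 val2 left out, 1 member was called lower.

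Markers of other tissues were read to describe what the seedlings held. Of 15 root genes, 14 were tested, 5 were called higher and 8 lower; their summed level was 109 to 154 FPKM in val1 val2 and 178 to 194 FPKM in WT, and 1 to 3 members were at 0 in a val1 val2 library and 2 in each WT library. CASP1, of the endodermal Casparian strip, had 3.63, 2.10 and 9.54 FPKM in val1 val2 libraries, against 27.6, 28.0 and 31.7 FPKM in WT libraries (log2 difference -2.49 ± 0.43, adjusted p = 0.0041). The root hair genes COBL9, EXPA7, EXPA18, PRP3 and RSL4 were all called lower, while SCR, of the ground tissue, was called higher (log2 difference 0.60 ± 0.12, adjusted p = 0.0070), as were WER, GL2, PHT1;1 and PIP2;5. GL2 had 2.12 and 3.33 FPKM in val1 val2 replicates 2 and 3 and was listed at 0 in every WT library. Its means were higher in val1 (7.40 FPKM) and val2 (5.61 FPKM). Without val1 val2 replicate 3, GL2 could not be tested and 3 root genes were called higher. Among 13 further markers, 8 were tested, 4 were called higher and 2 lower, and their summed level was 144 to 174 FPKM in val1 val2 and 82.0 to 92.3 FPKM in WT. The guard cell genes FAMA, with 2.33, 3.56 and 12.0 FPKM in val1 val2 libraries, against 27.0, 25.6 and 29.8 FPKM in WT libraries (log2 difference -2.29 ± 0.48, adjusted p = 0.0090), and MYB60 (log2 difference -1.99 ± 0.50, adjusted p = 0.017) were called lower; that of MYB60 was lost without val1 val2 replicate 2 or any 1 WT library (adjusted p = 0.051 to 0.063). EPR1, of the endosperm at germination, had 59.9, 95.4 and 85.4 FPKM in val1 val2 libraries and was listed at 0 in every WT library (adjusted p = 6.3e-06). Markers of callus and root stem cells included WOX11 and LBD16, both called higher. WOX11 had 27.2, 20.1 and 9.08 FPKM in val1 val2 and was listed at 0 in WT (adjusted p = 3.2e-04, limma). LBD16 had 22.0, 17.1 and 9.19 FPKM in val1 val2, against 2.12, 2.32 and 2.99 FPKM in WT (adjusted p = 0.0018, limma). At 0 were 5 members in each val1 val2 library and 7 or 8 in each WT library. The pollen gene VGD1, the senescence gene SAG12, the endosperm gene CKX2 and the seed coat gene BAN were at 0 in all 6 libraries. The part of tissue makeup in the other results was not tested.

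Several transcription factor families leaned one way, beside 22.4% of all genes tested called higher and 29.1% lower (median difference -0.13). Of 11 SPL genes tested, 0 were called higher and 7 lower (median difference -0.95), and of 14 TCP genes, which shape leaf growth, 1 was called higher and 9 lower (median -1.01). The type-A and type-B cytokinin response regulators named ARR gave 0 higher and 6 lower of 7 tested. NAC genes leaned upward, with 21 higher and 9 lower of 44 tested (median 0.45), as did WRKY genes, with 20 higher and 10 lower of 47 (median 0.32). MYB genes were even, with 14 higher and 15 lower of 63. The LBD family, with 8 higher and 5 lower of 15 tested, had members far apart. LBD40 averaged 174 ± 59.7 FPKM in val1 val2 and was listed at 0 in WT, and LBD37, a repressor of nitrate responses, averaged 6.17 ± 4.36 FPKM in val1 val2 and 112 ± 24.2 FPKM in WT (SD, n = 3 each).

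Outside all of these lists, the 10 largest rises among genes with 6 values were of genes listed at 0 in WT, with the exception of BAM5 at 0.808 FPKM in WT replicate 2. The highest was AT5G38160, which had 4314, 3960.1 and 1404 FPKM in val1 val2 libraries and was listed at 0 in every WT library (adjusted p = 1.2e-05), and AT5G38170, next to it by locus number, had 1586, 1095 and 529.7 FPKM in val1 val2 libraries and was listed at 0 in every WT library (adjusted p = 1.4e-05). AT2G05580 had 537, 2803 and 2881 FPKM in val1 val2 libraries and was listed at 0 in every WT library; here replicate 1 was the low library and replicates 2 and 3 were alike. LCR67, a plant defensin gene, had 1066, 1169 and 675 FPKM in val1 val2 libraries and was listed at 0 in every WT library (adjusted p = 2.2e-06). BAM5, a beta-amylase gene, had 1715, 1147 and 704 FPKM in val1 val2 libraries, against 0, 0.808 and 0 FPKM in WT libraries (log2 difference 9.84 ± 0.38, adjusted p = 1.4e-05). The other 5 were AT4G33145, AT2G15010, AT4G30880, AT2G34700 and MEE26. Among the 10 largest falls was FBA5, a fructose-bisphosphate aldolase gene, with 0.426, 0.767 and 2.27 FPKM in val1 val2 libraries, against 94.5, 108 and 104 FPKM in WT libraries (log2 difference -5.67 ± 0.31, adjusted p = 4.6e-05). BT1, a BTB and TAZ domain gene responsive to nitrate, had 4.16, 3.65 and 17.2 FPKM in val1 val2 libraries, against 154, 191 and 197 FPKM in WT libraries (log2 difference -4.57 ± 0.52, adjusted p = 8.5e-04). In both, every val1 val2 library was far below WT, with replicate 3 the nearest. GLU1, the ferredoxin-dependent glutamate synthase of photorespiration, had 6.64, 22.7 and 58.7 FPKM in val1 val2 libraries, against 609.6, 348 and 532 FPKM in WT libraries (log2 difference -4.45 ± 0.71, adjusted p = 0.0031). WRI4, a wax synthesis regulator related to WRI1, had 0, 3.42 and 0 FPKM in val1 val2 libraries, against 22.4, 25.4 and 42.4 FPKM in WT libraries (log2 difference -4.19 ± 0.61, adjusted p = 0.0023). AT3G06950 and AT2G47880 were listed at 0 in every val1 val2 library and had 23.4, 23.8 and 27.5 FPKM and 20.0, 16.8 and 19.5 FPKM in WT. The remaining falls were of AT3G46490, AT1G07050, AT1G67865 and LBD37.

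Commonly used reference genes were not all level. Of 12, 3 were called higher and 2 lower (median difference 0.19). The share called was 41.7%, below the 51.5% of all genes tested. ACT2, the leaf and root actin, had 86.3, 112 and 263 FPKM in val1 val2 libraries, against 627, 635 and 693 FPKM in WT libraries (log2 difference -2.24 ± 0.40, adjusted p = 0.0047), while ACT7 had 304, 543 and 522 FPKM in val1 val2 libraries, against 266, 273 and 262 FPKM in WT libraries (log2 difference 0.72 ± 0.24, adjusted p = 0.045), a call lost in 9 alternatives, with adjusted p up to 0.138. Actin genes are near-identical copies. GAPC2, of cytosolic glycolysis, had 2189, 1946 and 1288 FPKM in val1 val2 libraries, against 726, 793 and 767 FPKM in WT libraries (log2 difference 1.21 ± 0.23, adjusted p = 0.0061). UBQ10, YLS8 and AT4G34270 did not pass.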

How the data were processed

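FPKM values per assembled locus were used as deposited, from 1 table per library; per the submitters' processing notes, the tools were Cufflinks 2.2.1 and TopHat2 2.1.1 and the build TAIR10, with no role given. The tables hold no read counts, so depth was taken only as implied by the confidence intervals the authors' tables give, and strand use is not given in the sources used here. Loci were assigned to 27444 TAIR10 genes by overlap, and a gene's level is the sum over loci of FPKM times the share of the gene covered. A value was set to missing where a locus could not be assigned to 1 gene (4693 genes in the 6 libraries). It was also set to missing where a gene at 10 FPKM or more in the other libraries of its group had no locus assigned (103 values of 99 genes). Gene symbols came from a RefSeq gene table, used for names alone; of 513 list genes, 474 were matched by symbol and the others by locus; no sequence was used here.

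Genes with at least 2 values per group and 1 FPKM or more in 3 libraries (2 where a group had 2 values) were tested over the 6 libraries by limma (version 3.58.1, R 4.3.3) on the log2(FPKM + 1) scale, with moderated variances and a mean trend. The fit was tried on simulated data with 15399 genes. It recovered 62 of 100 2-fold and 94 of 100 4-fold changes, with 21 false calls. False calls were thus a larger share of the simulated calls than the threshold on adjusted p aims at. The simulation changed far fewer genes than the 51.5% called in the data, so it does not give the error rate there. The single mutants enter the contrast over 12 libraries.

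Members and lists were chosen with earlier results of these data known. Genes named by rule were the mutated genes, LEC1, LEC2, FUS3, ABI3, FLC and AGL15, the 10 largest rises and 10 largest falls outside the lists, and in each of 29 lists up to 4 called members of largest difference and up to 2 that went against the majority or did not pass; every other gene named was chosen after its values were seen. The labels do not say whether replicate numbers pair libraries, and the main fit took the libraries as unpaired. The p-values measure the spread between these samples, which may be technical.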

Additional observations from a re-analysis of the deposited data

Results flagged for a closer look

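The contrast of the double mutant with both single mutants and WT asked whether the difference made by losing VAL1 was itself different without VAL2. It was called for 8044 of 17096 genes (limma, adjusted p under 0.05), with a spread shared by all groups that can understate the error of val1 val2. Among the regulators, the contrast on the log2(FPKM + 1) scale was 4.08 for LEC1, 6.31 for FUS3 and 5.28 for ABI3, all listed at 0 in both single mutants and WT, so these 3 values depend on the pseudocount. For FLC the contrast was 2.83 and for AGL15 it was 2.0. For VAL2 it was 0.84, with val1 val2 below WT. VAL2 averaged 12.8 FPKM in val1 val2, 13.6 in val1, 10.5 in val2 and 20.5 in WT. Both single mutants lay below WT, so this positive contrast is not a rise in val1 val2.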

How the results depend on the processing

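Over 18 alternatives, 2695 of 2774 recomputed values of the 157 named genes tested kept their direction and their side of the threshold; 55 lost their call, 23 gained one and 1 changed direction, and these changes touched 21 genes. The change of direction was that of VAL1, 0.48 with the FPKM of the largest locus (adjusted p = 0.0271), where VAL2 fell short of the threshold (-0.42, adjusted p = 0.117); the locus of VAL1 in val1 val2 replicates 1 and 2 covers part of the gene. The number of genes called lay between 7138 (filter of 5 FPKM) and 10688 (library weights) in the fits on all libraries, and between 6566 and 10040 on leaving out 1 library, where 3146 to 4112 were higher and 3414 to 5928 lower. The count at 2-fold was 3306 with a pseudocount of 5 FPKM, which by construction shrinks the differences of low genes, and 4599 to 6023 on leaving out 1 library. With a replicate block, 7885 genes were called, 5267 of them at 2-fold, and 7915 for the contrast over 12 libraries. EDS1 (adjusted p = 0.0995) and LHY (adjusted p = 0.0942) were among the calls lost with this block. Same-numbered libraries had correlations of 0.074, -0.028 and -0.008 between their deviations, and 1 of 3 correlated best with its own number. These values show no clear pairing by number. Whether same-numbered libraries shared a plate or sowing was not tested. Of 174 recomputed list counts, 13 moved by over 1.5 times, 7 of them without val1 val2 replicate 3. The others came from quantile normalization or median-centred libraries, among them the glucosinolate genes, with 5 called lower after centring; the cause was not tested. SESA1 to SESA4 could not be tested without val1 val2 replicate 2 or 3, with missing loci entered as 0, or with 3 libraries required for every gene, an alternative chosen after seeing the data. Depth was known only as implied by the tables, so no floor is given for a gene listed at 0.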

Other observations

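Further gene families, grouped by symbol, were read in the same fit, beside 22.4% of all genes called higher and 29.1% called lower. Of 14 SAUR genes tested, which respond early to auxin, 2 were called higher and 9 lower (median log2 difference -1.58). Of 16 PIP genes, for water channels of the plasma membrane, 1 was called higher and 9 lower, and PIP2B averaged 48.2 FPKM in val1 val2 and 322 FPKM in WT. KCS genes, for the elongases of long chain lipids, gave 3 higher, FAE1 of seed oil among them, and 8 lower of 16. GSTU genes, for glutathione transferases, leaned upward, with 12 higher and 4 lower of 21, and all 6 CML genes tested, for calmodulin-like proteins, were called higher. Of 8 SWEET sugar transporter genes, 2 were called higher and 5 lower; SWEET7 averaged 134 FPKM in val1 val2 and was listed at 0 in WT. Of 7 AAP amino acid permease genes, 5 were called higher and 2 lower.

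By the mean of the 3 val1 val2 libraries, the gene of highest FPKM outside the seed lists was LTP2, for a lipid transfer protein, although MT2B was above it in replicate 2 (5969 FPKM). LTP2 had 6682, 5015 and 6856 FPKM in val1 val2, against 156, 161 and 159 FPKM in WT. EXT3, for a cell wall extensin, had 2061, 2936 and 2901 FPKM in val1 val2, against 475, 470.0 and 468 FPKM in WT. Neither gene followed the order of the val1 val2 libraries seen in storage genes, where replicate 3 was the lowest. Of the 100 genes best expressed in the single-mutant libraries, 66 were called lower and 4 higher in val1 val2, with a median log2 difference of -1.65. Genes were picked here by their level in single mutants, where storage genes were low. The choice therefore favours genes lower in val1 val2, and these counts are no separate support.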
